A study of Mus musculus with 9 samples.

Results

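The expression of 38 macrophage and monocyte genes was followed in the quadriceps of mice without acid alpha-glucosidase. The genes were chosen by name as markers of these cells and were set out by role: 12 core phagocyte genes, 4 genes of resident-type tissue macrophages, 4 other tissue macrophage genes, 4 genes associated with lipid-laden macrophages, 4 Fc receptor genes, 4 complement genes and 6 genes of chemokines and inflammation. Of the 38, 37 were among the 13116 genes of the deposited table, and all 37 passed a filter on low values (1 or more normalized counts in at least 3 libraries) that left 13089 genes to test. Msr1 was not analysed here. For 5 members (Aif1, Cd84, Fcgr1, Ccl2 and Cx3cr1) every wild-type library was under 1, so the knockout libraries alone met that filter, and these genes could enter the fit only by being higher there.

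Macrophages are phagocytes that take up dead cells, debris and microbes and digest them in lysosomes. In skeletal muscle a resident population lies in the connective tissue between the fibres, marked by the scavenger receptor Cd163, the mannose receptor Mrc1, the hyaluronan receptor Lyve1 and the folate receptor Folr2, while monocytes that enter damaged muscle through the receptor Ccr2 give rise to further macrophages. Macrophages that digest much lipid or debris are known to carry Trem2 and Gpnmb.

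The mice were male and 18 months old, with 3 per group. WT_PBS mice were wild type and received phosphate-buffered saline (PBS). KO_PBS mice carried a knockout of GAA, which encodes the enzyme that digests glycogen in lysosomes and is deficient in Pompe disease, and received PBS. KO_secGAA mice carried the same knockout and received the vector AAV8-sp7-delta8-hGAAco, which provides a secreted human form of the enzyme made in the liver. All injections were into a tail vein at 9 months of age. None of the groups used here received a vector without the enzyme, so vector and enzyme cannot be told apart. The RNA came from whole muscle, in which more macrophages, more RNA per macrophage and expression of these genes by other cells cannot be told apart.

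The libraries held 9299156 to 15957106 reads in the genes of the table, so 1 read equalled 0.0652 to 0.0922 normalized counts and 3 reads, the least told here from 0, equalled 0.196 to 0.276. Gaa lay at 129 to 296 normalized counts in the 3 WT_PBS libraries and at 14.0 to 17.8 in the 6 knockout libraries. All 7 muscle fibre markers were present, with summed levels of 123600 to 139800 in WT_PBS, 90440 to 106600 in KO_PBS and 104000 to 116500 in KO_secGAA. The libraries of a group differed in macrophage genes as a whole. WT_PBS 3 was the lowest of its group for 27 of the 37 genes, KO_PBS 1 for 29 and KO_secGAA 3 for 32. KO_secGAA 3 was the highest of its group for 0 of them.

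The effect of the knockout without treatment was read from KO_PBS against WT_PBS. Members of every role but the resident type were among those that rose, and the 4 resident-type genes did not pass the test. Of the 37 genes, 13 rose (35.1%), where 21.9% of all genes tested passed in either direction and 10.9% rose: Cd68, Mpeg1, Lyz2, Laptm5, Cd84, Ms4a7, Trem2, Gpnmb, Fcgr2b, Fcgr3, C3ar1, Ccl2 and Ccr2. Among them, Cd84 and Ccl2 met the filter through knockout libraries alone and could enter only by being higher there. The median log2 fold change of the 37 was 0.95, against 0.01 over all genes, with 32 of 37 above 0 and a range from -0.68 for Lyve1 to 2.12 for Mpeg1. The groups did not overlap for 24 members with KO_PBS higher (64.9%, beside 20.7% of all genes) and for 1, Lyve1, with KO_PBS lower (2.7%, beside 19% of all genes). The 24 include Cd84, Fcgr1, Ccl2 and Cx3cr1, which met the filter through knockout libraries alone. By limma, with p-values adjusted by the Benjamini-Hochberg method over all genes, 0 members fell, beside 11% of all genes. At an unadjusted p under 0.05, 25 were higher and 1 was lower. The share of all genes at that threshold was not counted in any comparison, so these counts have no background beside them. The tools voom, edgeR and DESeq2 also called 0 members lower, beside 1418, 1421 and 1579 of all 13089 genes.

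**Figure D1:**
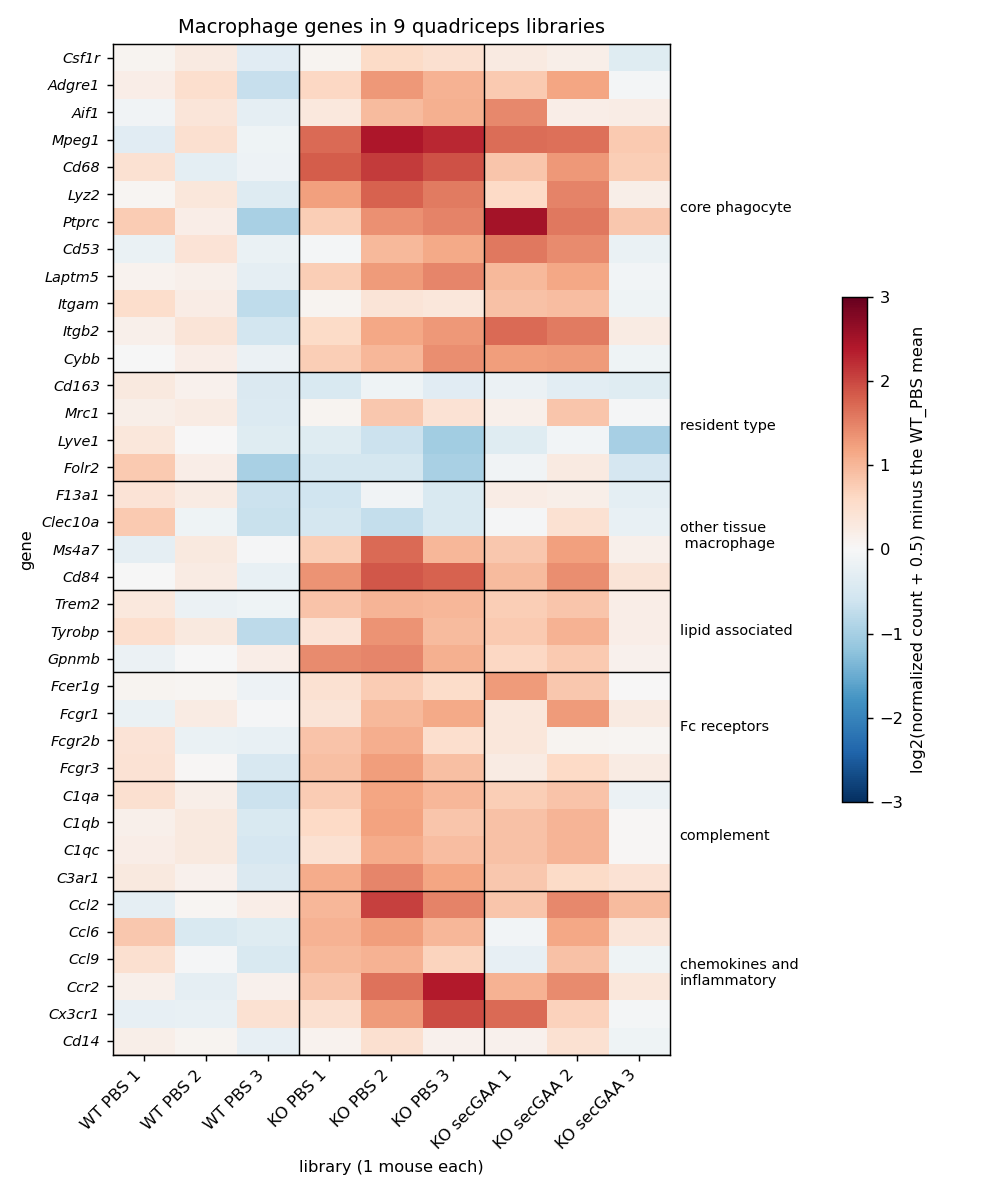
The 37 macrophage genes (rows, by role) in the 9 libraries (columns), coloured by log2(normalized count + 0.5) minus the mean of the WT_PBS libraries. Most rows are red in the KO_PBS columns, the rows of Cd163, Lyve1, Folr2, F13a1 and Clec10a are blue there, and KO_secGAA 3 is paler than KO_secGAA 1 and 2.

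Among the core phagocyte genes, 4 of 12 rose and the median was 1.03. Cd68, a glycoprotein of the lysosomal membrane of macrophages (ENSMUSG00000018774, chromosome 11, 69664213 to 69666153, GRCm38), was at 4.42, 2.42 and 2.702 normalized counts in WT_PBS, at 12.17, 14.78 and 13.01 in KO_PBS and at 5.85, 8.35 and 5.44 in KO_secGAA. The lowest KO_PBS mouse lay above every mouse of both other groups, and the lowest KO_secGAA mouse above every WT_PBS mouse. In KO_PBS the gene was 3.84-fold higher than in WT_PBS (log2 fold change 1.94, SE 0.22, limma adjusted p = 0.000383). Mpeg1, which encodes the pore-forming perforin-2 of phagocytes (ENSMUSG00000046805, chromosome 19, 12460779 to 12465283), was at 2.85, 5.45 and 3.37 in WT_PBS, at 13.2, 22.3 and 19.9 in KO_PBS and at 13.1, 12.8 and 6.88 in KO_secGAA. Its 3 groups did not overlap either, and it rose 4.36-fold (log2 fold change 2.12, SE 0.30, adjusted p = 0.00116). Lyz2, the lysozyme gene of macrophages, was at 47.3, 57.4 and 34.3 in WT_PBS, at 107.8, 156 and 135 in KO_PBS and at 69.1, 128 and 51.1 in KO_secGAA. It rose 2.88-fold (adjusted p = 0.00682), with the caveat that the near-identical Lyz1 can share its reads. Per kilobase of exon Lyz2 was the most abundant member, at a mean of 35.2 in WT_PBS and 101 in KO_PBS, and Cx3cr1 was the least abundant in WT_PBS, at 0.051.

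Laptm5, a lysosomal membrane protein of blood cells, was at 7.23, 7.48 and 5.44 in WT_PBS and at 11.4, 16.8 and 19.2 in KO_PBS (log2 fold change 1.16, SE 0.31, limma adjusted p = 0.0248). Leaving out WT_PBS 3, KO_PBS 2 or KO_PBS 3 ended this call (p at most 0.0911 after adjustment). The other 8 core genes did not pass. The receptor of macrophage growth factor, Csf1r, was at 18.5, 20.9 and 13.6 in WT_PBS and at 18.5, 26.3 and 24.6 in KO_PBS, with overlapping groups (log2 fold change 0.39, 95% interval -0.08 to 0.86, adjusted p = 0.223). Adgre1, the F4/80 antigen, was at 3.94, 5.02 and 1.89 and at 5.51, 9.02 and 7.49 (0.99, 0.16 to 1.82, adjusted p = 0.0871). The remaining core genes had log2 fold changes from 0.27 for the integrin Itgam to 1.20 for the phosphatase Ptprc, which marks all white blood cells, with adjusted p-values from 0.06 for the oxidase subunit Cybb to 0.64 for Itgam. Exons of Csf1r overlap those of Hmgxb3 on the opposite strand and exons of Itgam those of Gm49368 on the same strand. Whether the reads were counted by strand is not given in the sources used here.

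The 4 resident-type genes had a median log2 fold change of -0.49, and 0 rose or fell in limma, voom, edgeR or DESeq2, with 0 higher and 1 lower at an unadjusted p under 0.05. By limma, 10.9% of all genes rose and 11% fell. Cd163, the receptor that takes up haemoglobin (ENSMUSG00000008845, chromosome 6, 124304656 to 124330527), was at 12.03, 10.57 and 7.07 in WT_PBS, at 6.95, 8.86 and 7.49 in KO_PBS and at 8.43, 7.65 and 7.46 in KO_secGAA. All 3 groups overlapped (KO_PBS against WT_PBS -0.30, 95% interval -0.72 to 0.11, limma adjusted p = 0.279). Mrc1 (ENSMUSG00000026712, chromosome 2, 14229392 to 14332057) was at 9.29, 9.66 and 5.96 in WT_PBS, at 8.64, 14.5 and 11.1 in KO_PBS and at 9.08, 14.8 and 7.96 in KO_secGAA. It was the only 1 of the 4 with a log2 fold change above 0 (0.44, -0.17 to 1.04, adjusted p = 0.283).

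Lyve1 (ENSMUSG00000030787, chromosome 7, 110850607 to 110863239) was at 8.05, 6.36 and 4.78 normalized counts in WT_PBS, at 4.73, 3.82 and 2.80 in KO_PBS and at 4.75, 5.90 and 2.92 in KO_secGAA. Every KO_PBS mouse lay below every WT_PBS mouse, by a margin of 4.73 against 4.78 at the nearest (log2 fold change -0.68, 95% interval -1.30 to -0.07, limma adjusted p = 0.106). The gene also marks lymphatic endothelium, and 4 of 5 other markers of that tissue were in the table, with summed levels of 13.9 to 22.4 in WT_PBS and 18.7 to 21.2 in KO_PBS. These 4 markers differed in direction, with log2 fold changes from -0.69 to 0.69 and 3 above 0. The groups did not overlap for 1 with KO_PBS higher and 1 with KO_PBS lower (beside 20.7% and 19% of all genes). Their part in the values of Lyve1 was not tested. Folr2 (ENSMUSG00000032725, chromosome 7, 101839988 to 101857194) was at 7.23, 4.67 and 1.81 in WT_PBS, at 2.64, 2.64 and 1.79 in KO_PBS and at 3.73, 4.94 and 2.702 in KO_secGAA. WT_PBS 3 alone lay among the KO_PBS mice (-0.68, -1.56 to 0.20, adjusted p = 0.254), and without that library Folr2 passed as lower. Exons of Folr2 overlap an antisense gene, as do those of F13a1, Cx3cr1 and Fcgr2b.

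As a share of the summed normalized counts of the 37 members, the 4 resident-type genes took 13%, 11.7% and 11.5% in WT_PBS, for a mean of 12.1% ± 0.83 (SD, n = 3). They took 5.93%, 5.48% and 4.85% in KO_PBS (mean 5.42% ± 0.54) and 6.98%, 7.1% and 8.97% in KO_secGAA (mean 7.68% ± 1.11). The 3 groups did not overlap in this share, with every KO_secGAA mouse between the other groups. The summed level of the 4 genes overlapped between WT_PBS (36.6, 31.3 and 19.6 normalized counts) and KO_PBS (23.0, 29.9 and 23.2), and that of all 37 members did not (281, 267 and 171 against 387, 545 and 477). Sums and shares weigh abundant genes most. The difference between resident-type and other members was not tested.

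**Figure D2:**
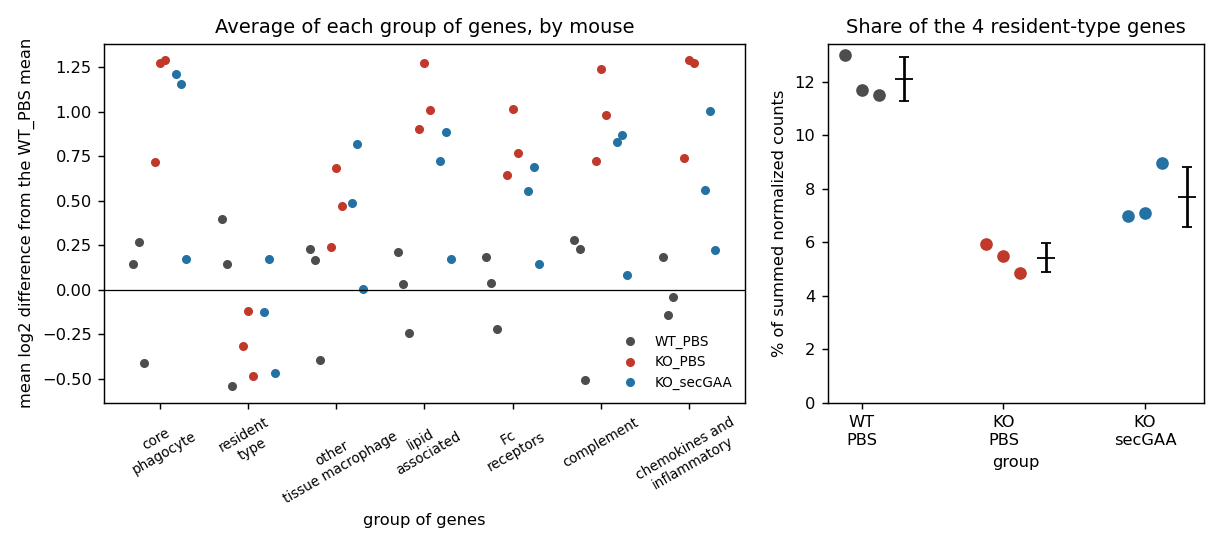
Left, the average over each group of macrophage genes of log2(normalized count + 0.5) minus the WT_PBS mean, 1 point per mouse in 3 colours for the 3 groups of mice. Right, the 4 resident-type genes as a percentage of the summed normalized counts of all 37 genes, with the mean and SD: 12.1% in WT_PBS, 5.42% in KO_PBS and 7.68% in KO_secGAA.

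Of the other tissue macrophage genes, 2 of 4 rose. Cd84, an adhesion receptor of white blood cells, was at 0.720, 0.949 and 0.555 in WT_PBS and at 2.64, 3.98 and 3.72 in KO_PBS (log2 fold change 1.66, SE 0.29, limma adjusted p = 0.00313). Ms4a7, a membrane protein of macrophages, was at 0.720, 1.30 and 0.925 and at 1.93, 4.22 and 2.44 (1.14, adjusted p = 0.037), a call lost with voom and without any of WT_PBS 1, 2 and 3, KO_PBS 2 and 3 or KO_secGAA 1 (adjusted p up to 0.133). F13a1, the coagulation factor XIII A chain, was at 14.7, 13.2 and 6.85 in WT_PBS and at 7.14, 10.2 and 7.95 in KO_PBS (-0.38, 95% interval -0.98 to 0.22, adjusted p = 0.349). The lectin gene Clec10a was at 10.2, 5.16 and 3.37 and at 3.75, 3.27 and 3.999 (-0.57, -1.30 to 0.17, adjusted p = 0.254). In both, WT_PBS 1 and 2 lay above every KO_PBS mouse, and WT_PBS 3 lay below every KO_PBS mouse for F13a1 and among them for Clec10a.

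Of the 3 lipid-associated genes tested, 2 rose. Gpnmb, a glycoprotein of lysosomes and the cell surface (ENSMUSG00000029816, chromosome 6, 49036546 to 49070929), was at 4.63, 5.23 and 6.11 in WT_PBS, at 15.04, 15.48 and 11.72 in KO_PBS and at 8.43, 9.48 and 5.87 in KO_secGAA. KO_PBS lay above both other groups, which overlapped (KO_PBS over WT_PBS, log2 fold change 1.32, SE 0.19, limma adjusted p = 0.00134). Trem2, a lipid-sensing receptor, was at 1.34, 0.808 and 0.851 in WT_PBS, at 2.19, 2.48 and 2.44 in KO_PBS and at 1.98, 2.14 and 1.19 in KO_secGAA. It rose 1.93-fold (adjusted p = 0.0203), which was lost on leaving out WT_PBS 2 or 3 or KO_PBS 2 or 3 (p at most 0.0716 after adjustment). Tyrobp, the adaptor through which Trem2 signals, was at 3.74, 3.13 and 1.22 and at 3.49, 7.05 and 5.29, with overlapping groups (0.91, 95% interval 0.08 to 1.74, adjusted p = 0.111).

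Among the Fc receptor genes, 2 of 4 rose. Fcgr3, an activating receptor for antibody-coated material, was at 4.15, 2.99 and 1.96 in WT_PBS and at 5.839, 7.604 and 5.838 in KO_PBS (2.01-fold, limma adjusted p = 0.0143; 0.0592 without KO_PBS 2). Fcgr2b, the inhibitory receptor, was at 5.45, 3.41 and 3.37 and at 7.66, 9.02 and 5.84 (1.76-fold, adjusted p = 0.0242), which was lost on leaving out WT_PBS 2 or 3 or KO_PBS 1 or 2 (p at most 0.092 after adjustment). Both groups of mice were apart in both genes. These receptors are related in sequence, and their genes lie 74.6 kb from each other on chromosome 1, 165 and 253 kb from Fcer1g. Fcer1g, the signalling chain of Fcgr3 and other receptors, and Fcgr1, the high-affinity receptor, had log2 fold changes of 0.58 and 0.83. They did not pass (adjusted p = 0.17 and 0.105), although KO_PBS lay above WT_PBS in every mouse.

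Of the complement genes, C3ar1, the receptor of the C3a fragment, rose. It was at 1.75, 1.51 and 0.851 in WT_PBS, at 3.42, 4.53 and 3.63 in KO_PBS and at 2.72, 2.23 and 1.98 in KO_secGAA, and its 3 groups did not overlap (KO_PBS over WT_PBS 2.37-fold, log2 fold change 1.25, SE 0.23, limma adjusted p = 0.00478). C1qa, C1qb and C1qc encode the chains of C1q, which tags debris for uptake, and lie within 9.73 kb of each other on chromosome 4. C1qa was at 26.63, 21.61 and 12.03 in WT_PBS and at 32.5, 44.3 and 38.4 in KO_PBS. All 3 chains lay higher in every KO_PBS mouse than in every WT_PBS mouse, by log2 fold changes of 0.98, 0.88 and 0.83. None of the 3 passed (adjusted p = 0.0532, 0.0516 and 0.0696), and all 3 passed with DESeq2, with a fit on these 2 groups alone, without scaling factors and without KO_secGAA 3.

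Among chemokines and inflammatory genes, 2 of 6 rose. Ccl2, the chemokine that draws monocytes (ENSMUSG00000035385, chromosome 11, 82035571 to 82037453), was at 0.308, 0.527 and 0.629 in WT_PBS, at 1.47, 3.59 and 2.25 in KO_PBS and at 1.24, 2.14 and 1.41 in KO_secGAA (2.87-fold over WT_PBS, limma adjusted p = 0.00718). Its receptor Ccr2, which marks incoming monocytes, was at 1.61, 1.09 and 1.59, at 2.903, 5.398 and 9.424 and at 3.46, 4.59 and 1.91 (3.05-fold, adjusted p = 0.0159). Leaving out WT_PBS 2 or KO_PBS 2 ended the Ccr2 call (p at most 0.0534 after adjustment). In both genes every knockout mouse, treated or not, lay above every WT_PBS mouse. The chemokines Ccl6 and Ccl9, 9.25 kb apart on chromosome 11, lay higher in every KO_PBS mouse without passing (1.09 and 0.90, adjusted p = 0.0584 and 0.067). Cx3cr1, the fractalkine receptor, was at 0.103, 0.105 and 0.481 in WT_PBS, where 2 mice were under the level of 3 reads, and at 0.489, 1.22 and 2.25 in KO_PBS (adjusted p = 0.109). Cd14, a co-receptor for bacterial lipopolysaccharide, showed the smallest difference of the 37 above 0 (0.24, 95% interval -0.19 to 0.66, adjusted p = 0.416).

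**Figure D3:**
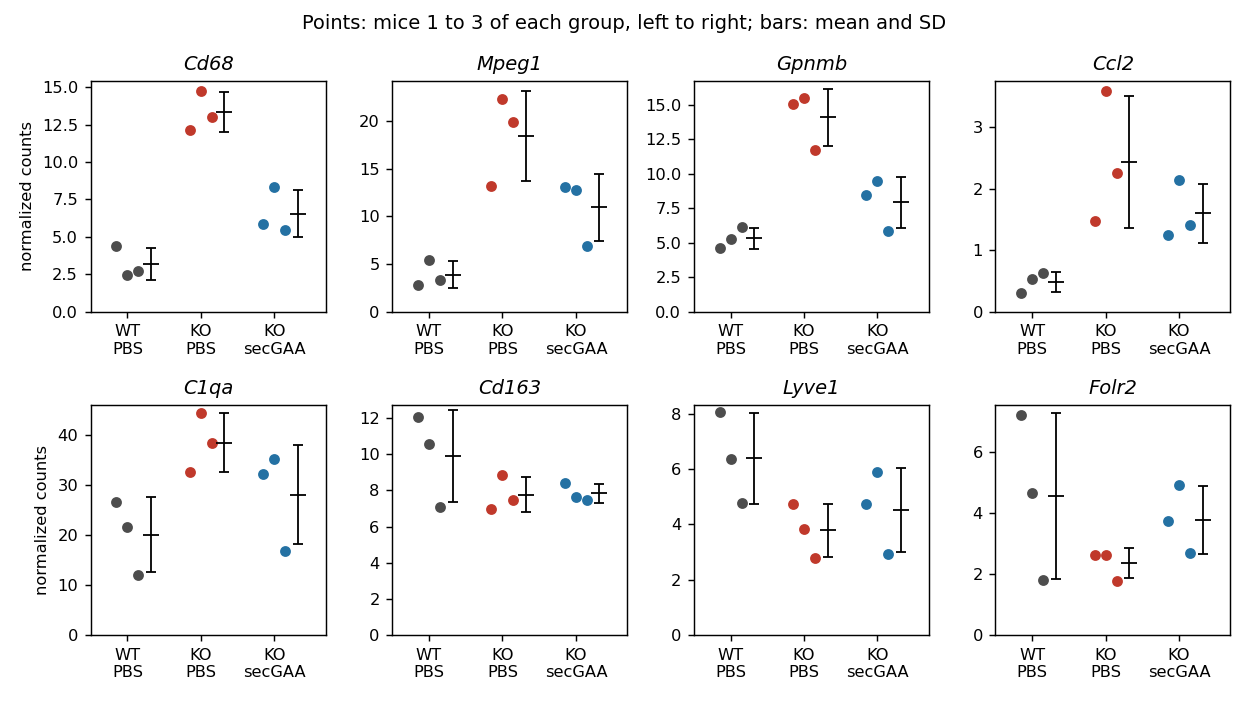
Normalized counts of 8 macrophage genes in each mouse, with the mean and SD of each group of 3. Cd68, Mpeg1, Gpnmb, Ccl2 and C1qa are higher in KO_PBS than in WT_PBS in every mouse, and Cd163, Lyve1 and Folr2 are not.

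Promoters of 6 members that rose are shown because PU.1, encoded by Spi1, is the lineage factor of macrophages and binds sites with the core letters GAGGAA. RefSeq windows on GRCm38.p6, from 250 bases before to 50 after the start site, were matched for 28 of the 37 members. The rule was up to 5 risen members by smallest p, with at most 1 per role, which gave Cd68, Gpnmb, Cd84, C3ar1 and Ccl2, the first 4 of them with a matched window. Those of Laptm5 and Trem2 were added after the matches were seen, as examples that hold GAGGAAG. Each is printed on the strand of its gene, with capitals where GAGGAA or GAGGAAG was found on either strand (TTCCTC or CTTCCTC on the other). The windows of Gpnmb and C3ar1 hold no match.

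Cd68, chr11:69666121-69666420, minus strand: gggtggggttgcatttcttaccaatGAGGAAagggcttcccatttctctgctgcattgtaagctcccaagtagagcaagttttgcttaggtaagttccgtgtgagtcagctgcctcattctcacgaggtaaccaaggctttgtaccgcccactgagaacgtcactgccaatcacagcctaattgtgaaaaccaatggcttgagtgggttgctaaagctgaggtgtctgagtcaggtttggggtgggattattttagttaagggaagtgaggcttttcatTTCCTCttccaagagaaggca
Gpnmb, chr6:49036268-49036567, plus strand: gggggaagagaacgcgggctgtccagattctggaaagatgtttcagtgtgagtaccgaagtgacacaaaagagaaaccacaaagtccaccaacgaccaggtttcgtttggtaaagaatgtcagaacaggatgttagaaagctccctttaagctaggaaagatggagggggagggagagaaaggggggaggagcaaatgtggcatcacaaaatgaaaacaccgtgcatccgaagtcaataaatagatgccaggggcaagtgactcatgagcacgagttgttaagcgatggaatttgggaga
Cd84, chr1:171839447-171839746, plus strand: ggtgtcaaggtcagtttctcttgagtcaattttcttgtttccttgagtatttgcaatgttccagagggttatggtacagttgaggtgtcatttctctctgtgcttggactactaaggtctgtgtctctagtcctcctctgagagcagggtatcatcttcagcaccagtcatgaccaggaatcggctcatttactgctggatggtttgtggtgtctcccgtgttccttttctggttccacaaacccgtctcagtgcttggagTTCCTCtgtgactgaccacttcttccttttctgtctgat
C3ar1, chr6:122856108-122856407, minus strand: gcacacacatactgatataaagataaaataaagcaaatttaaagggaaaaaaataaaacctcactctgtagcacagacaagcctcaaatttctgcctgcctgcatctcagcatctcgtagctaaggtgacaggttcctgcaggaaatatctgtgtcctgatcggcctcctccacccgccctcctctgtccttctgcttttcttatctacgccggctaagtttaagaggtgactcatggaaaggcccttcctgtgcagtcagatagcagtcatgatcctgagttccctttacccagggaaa
Laptm5, chr4:130913066-130913365, plus strand: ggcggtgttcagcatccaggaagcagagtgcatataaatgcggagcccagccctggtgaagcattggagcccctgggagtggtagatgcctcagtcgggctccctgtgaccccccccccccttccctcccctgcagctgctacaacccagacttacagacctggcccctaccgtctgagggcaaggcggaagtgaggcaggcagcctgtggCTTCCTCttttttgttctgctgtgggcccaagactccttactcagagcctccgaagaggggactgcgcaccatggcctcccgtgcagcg
Trem2, chr17:48346151-48346450, plus strand: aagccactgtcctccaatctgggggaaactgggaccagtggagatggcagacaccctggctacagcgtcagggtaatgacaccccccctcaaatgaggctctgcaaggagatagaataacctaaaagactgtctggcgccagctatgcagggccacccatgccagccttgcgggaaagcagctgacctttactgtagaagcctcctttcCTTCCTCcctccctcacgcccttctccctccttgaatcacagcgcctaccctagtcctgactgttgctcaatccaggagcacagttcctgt

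The motif GAGGAAG was found in 9 of the 28 member windows (32.1%) and in 13.6% of all 32851 windows of this length. It was in 3 of the 12 matched members that rose (Fcgr3, Laptm5 and Trem2) and in 6 of the 16 that did not (C1qc, Cd53, F13a1, Fcgr1, Itgam and Mrc1). The shorter GAGGAA, which it contains and which was searched after values were seen, was found in 16 (57.1%) and in 28.3%, with 6 of the 12 that rose and 10 of the 16 that did not. The longer AGAGGAAGT was in 0 of 28 and 1% of all. In Laptm5 and Trem2 the GAGGAAG match lies 39 and 41 bases before the start site. The E-box CACGTG, bound by the TFE and MITF factors of lysosomal genes, was in 0 of 28 and 7.15% of all windows, and TCATGTGA in 0 of 28 and 0.986%. A match of letters is a description of the window. Spi1 itself was at 1.82, 1.93 and 1.37 normalized counts in WT_PBS, at 2.51, 6.42 and 4.64 in KO_PBS and at 3.82, 2.93 and 1.69 in KO_secGAA. It rose 2.17-fold in KO_PBS (limma adjusted p = 0.0388), and the call was lost in 7 of 18 alternatives (adjusted p up to 0.137).

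The effect of treatment within the knockout was read from KO_secGAA against KO_PBS. It shares the KO_PBS libraries with the comparison above, so the members' values stand side by side. Of the 37 genes, 1 fell (2.7%), where 3.67% of all genes passed in either direction and 2.31% fell, and 0 rose, beside 1.37%. The median log2 fold change was -0.35 (0 over all genes), with 10 of 37 above 0. The groups did not overlap for 7 members with KO_secGAA lower (18.9%, beside 12.3% of all genes): Mpeg1, Cd68, Trem2, Gpnmb, Fcgr2b, Fcgr3 and C3ar1. They did not overlap for 2 with KO_secGAA higher, Folr2 and Clec10a (5.41%, beside 11.7%). At an unadjusted p under 0.05, 9 were lower and 0 higher (share of all genes not counted). With voom, edgeR and DESeq2 0 members were likewise called higher, beside 145, 166 and 350 of all 13089 genes.

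Cd68 was the member that fell, from a mean of 13.3 ± 1.33 normalized counts in KO_PBS to 6.55 ± 1.57 in KO_secGAA (SD, n = 3), by 0.99 on the log2 scale (SE 0.22, limma adjusted p = 0.042). The call ended without WT_PBS 3 and without any one of the KO_PBS or KO_secGAA libraries (adjusted p up to 0.141). Gpnmb, at 14.1 ± 2.06 and 7.93 ± 1.86, had a log2 fold change of -0.81 (SE 0.19, adjusted p = 0.0504). It passed in 7 of 19 alternatives, among them voom, DESeq2 and quantile normalization. Mpeg1, at 18.5 ± 4.70 and 10.9 ± 3.52, had -0.75 (95% interval -1.42 to -0.08, adjusted p = 0.209), and Lyz2, at 133 ± 24.4 and 82.9 ± 40.4, had -0.77 (-1.46 to -0.09, adjusted p = 0.207). In Lyz2 the groups overlapped through KO_secGAA 2, at 128.

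By role, the medians were -0.54 for chemokines and inflammation, -0.42 for Fc receptors, -0.37 for complement, -0.36 for the lipid-associated genes, -0.30 for core phagocyte genes, -0.002 for other tissue genes and 0.11 for the resident-type genes. Differences between these medians were not tested. Among the core genes with a log2 fold change above 0, Ptprc, at 12.8, 6.51 and 3.64 in KO_secGAA, had a log2 fold change of 0.42 (95% interval -0.68 to 1.52, limma adjusted p = 0.695), and Cd53, a tetraspanin of white blood cells, at 7.51, 6.60 and 1.84, had 0.25 (-0.81 to 1.31, adjusted p = 0.824). The sign of both turned with 1 library left out. Folr2 and Clec10a, higher in every treated mouse, had 0.57 (-0.31 to 1.45, adjusted p = 0.486) and 0.63 (-0.10 to 1.37, adjusted p = 0.337).

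**Figure D4:**
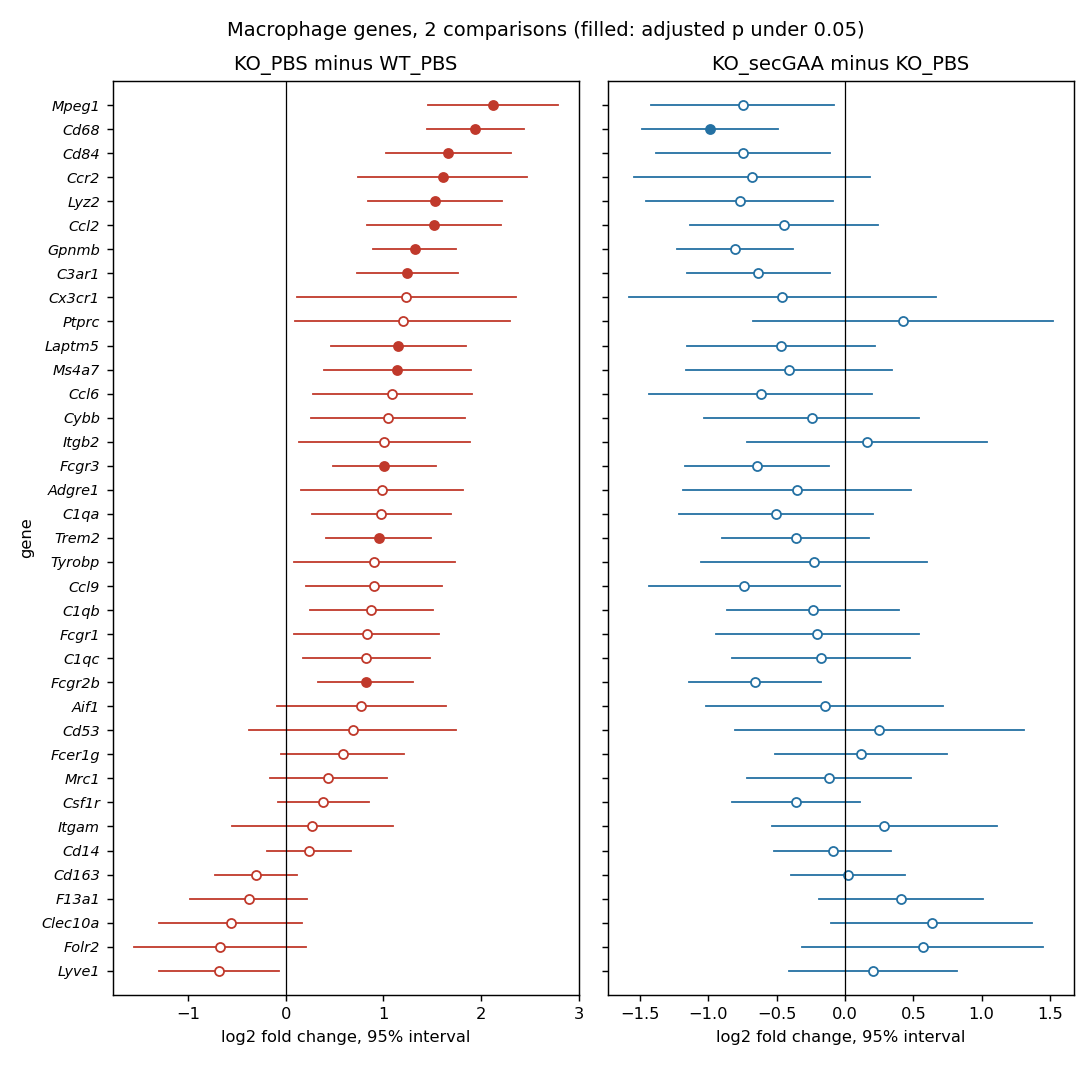
Log2 fold change with its 95% interval (horizontal axis) of each of the 37 macrophage genes, for KO_PBS minus WT_PBS on the left and KO_secGAA minus KO_PBS on the right. Filled points passed at an adjusted p under 0.05: 13 on the left, and Cd68 alone on the right.

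The 3 treated mice were unlike each other in these genes. The summed level of the 37 was 372 normalized counts in KO_secGAA 1, 469 in KO_secGAA 2 and 235 in KO_secGAA 3. KO_secGAA 3 lay within the range of WT_PBS (171 to 281), KO_secGAA 2 within that of KO_PBS (387 to 545) and KO_secGAA 1 between them. Without KO_secGAA 3 the median over the members for KO_secGAA against KO_PBS was -0.02, in place of -0.35. The B cell and plasma cell genes Igkc and Jchain, the 2 of 6 such markers in the table, moved with these libraries: their sum was 216 and 259 in KO_secGAA 1 and 2 and 5.04 in KO_secGAA 3, beside 1.18 to 6.92 in WT_PBS and 5.44 to 89.6 in KO_PBS. The 5 fat cell markers did as well, with sums of 179.7 and 180.7 against 44.6, beside 45.9 to 263 in WT_PBS and 28.0 to 73.6 in KO_PBS. Their part in the members' values was not tested.

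Against WT_PBS, treated muscle still differed in 2 of the 37 genes. KO_secGAA was higher for Mpeg1, at 10.9 ± 3.52 against 3.89 ± 1.38 normalized counts (log2 fold change 1.37, SE 0.30, limma adjusted p = 0.0373), and for Cd68, at 6.55 ± 1.57 against 3.18 ± 1.08 (0.95, SE 0.22, adjusted p = 0.0469). These are 5.41% of the members, where 3.72% of all genes passed in either direction and 1.83% rose. The median over the members was 0.62 (0.005 over all genes), with 34 of 37 above 0, and the groups did not overlap for 8 members with KO_secGAA higher (21.6%, beside 13.5%): Mpeg1, Cd68, Ptprc, Cd84, Fcgr1, C3ar1, Ccl2 and Ccr2. By limma 0 members fell, beside 1.89% of all genes. At an unadjusted p under 0.05, 15 were higher and 0 lower (share of all genes not counted). With voom, edgeR and DESeq2 0 members were called lower, beside 210, 249 and 535 of all 13089 genes. The number of members that rose was 0 with voom, 1 with edgeR (Mpeg1), 5 with DESeq2 (Mpeg1, Cd68, Ptprc, Itgb2 and Ccl2) and 0 with only the 2 groups compared. Of all 13089 genes, 166, 254, 487 and 191 rose in these settings. With 1 library left out the number of members was 0 (without WT_PBS 3, KO_PBS 3, KO_secGAA 1 or KO_secGAA 2) to 6 (without KO_secGAA 3, beside 279 of 13043 genes). The call of Mpeg1 was lost in 7 of 19 alternatives and that of Cd68 in 11 of 19.

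Further genes linked to these cells, some of them also made by other cell types, were followed in 6 lists. In KO_PBS against WT_PBS, 10.9% of all genes tested rose and 11% fell. For the growth factor axis and lineage factors, 2 of 9 rose in KO_PBS against WT_PBS, Spi1 and the GM-CSF receptor Csf2ra (log2 fold change 1.24, limma adjusted p = 0.0121). Csf1, the growth factor itself, was at 7.78, 10.2 and 6.03 in WT_PBS and at 10.5, 17.1 and 11.6 in KO_PBS (0.68, adjusted p = 0.0511).

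Of 12 further resident-type genes tested, 1 fell, beside 11% of all genes. The median log2 fold change of the list was -0.30, with 4 of 12 above 0. Cbr2, a carbonyl reductase, was at 68.9, 43.3 and 72.9 in WT_PBS, at 12.4, 13.4 and 14.4 in KO_PBS and at 28.1, 35.5 and 36.6 in KO_secGAA. The 3 groups were apart, with treated mice between the others. In KO_PBS, Cbr2 fell by 2.13 on the log2 scale against WT_PBS (limma adjusted p = 8.7e-05), was higher by 1.28 in KO_secGAA than in KO_PBS (adjusted p = 0.00774) and lower by a log2 fold change of -0.85 than in WT_PBS (adjusted p = 0.0393). The last call was lost in 9 of 19 alternatives. Without WT_PBS 3, 3 genes of this list fell in KO_PBS in place of 1, beside 824 of 13045 genes.

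Of 17 genes of lipid and lysosome handling, 7 rose in KO_PBS, beside 10.9% of all genes: Lgals3, Itgax, Ctss, Ctsb, Ctsd, Cd9 and Mmp12. Itgax and Mmp12 were under 1 in every WT_PBS library and likewise met the filter through knockout libraries alone. Lgals3, a galectin of macrophages and damaged lysosomes, was at 8.53, 6.64 and 6.92 in WT_PBS, at 86.6, 88.3 and 64.9 in KO_PBS and at 19.3, 15.1 and 8.54 in KO_secGAA. It was the 1 gene of the list that fell in KO_secGAA against KO_PBS (log2 fold change -2.501, limma adjusted p = 0.00229), where 2.31% of all genes fell. Itgax, the CD11c integrin, was at 0.171, 0.386 and 0.111 in WT_PBS, where 2 mice were under the level of 3 reads, at 2.12, 2.96 and 3.45 in KO_PBS and at 2.53, 1.27 and 0.613 in KO_secGAA (KO_PBS against WT_PBS, adjusted p = 0.0026). Ctss, a cathepsin of antigen-presenting cells, was at 8.398, 7.202 and 7.514, at 25.5, 30.2 and 27.1 and at 26.2, 28.9 and 8.18. KO_secGAA 1 and 2 lay among the KO_PBS mice and KO_secGAA 3 among the WT_PBS mice. Ctsb, a cathepsin of most cells, was at 346 to 366 in WT_PBS and at 481 to 544 in KO_PBS (1.44-fold, adjusted p = 0.00351). The number of risen genes in this list was 4 without WT_PBS 3, KO_PBS 2 or KO_PBS 3. Of all genes, 906 of 13045, 921 of 12994 and 1099 of 12954 rose in these settings.

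Of 17 genes of phagocyte signalling and oxidase, 4 rose in KO_PBS, beside 10.9% of all genes. They were the actin regulators Lcp1 (2.58-fold), Coro1a (2.61-fold) and Nckap1l (2.01-fold), and the integrin activator Fermt3 (log2 fold change 1.003), with limma adjusted p-values of 0.0232 to 0.0379. Lcp1 was at 4.76, 4.11 and 3.15 in WT_PBS, at 7.08, 13.1 and 14.3 in KO_PBS and at 14.9, 11.4 and 5.37 in KO_secGAA. All 4 calls were lost with voom and on leaving out WT_PBS 2, WT_PBS 3, KO_PBS 2 or KO_PBS 3 (p at most 0.121 after adjustment). Of 11 further chemokine genes, 5 rose, beside 10.9% of all genes: Cxcl10, Ccl5, Cxcl14, Cx3cl1 and Ccl8. Ccl5 too was under 1 in every WT_PBS library. Cxcl10, an interferon-induced chemokine, was at 0.446, 1.30 and 1.22, at 6.36, 14.5 and 20.0 and at 6.77, 3.71 and 3.28 (8.97-fold, adjusted p = 0.000869). Cx3cl1, the ligand of Cx3cr1, rose 2.78-fold (adjusted p = 0.0103). Cxcl14, made by many cell types, was at 66.0, 48.5 and 48.0, at 83.7, 90.7 and 86.5 and at 43.4, 60.9 and 55.4. It fell by 0.72 on the log2 scale in KO_secGAA against KO_PBS (adjusted p = 0.0342), a call lost in 7 of 19 alternatives, each without 1 library.

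Of 11 genes of inflammatory cytokines and sensors, 7 rose in KO_PBS, beside 10.9% of all genes: Tlr2, Tlr4, Tgfb1, Ptgs2, Pycard, Myd88 and Il18. Of these, Ptgs2, Pycard and Il18 were under 1 in every WT_PBS library, so they met the filter through knockout libraries alone and could enter only by being higher there. Tlr2, a sensor of microbial lipoproteins, was at 1.89, 2.07 and 1.96 in WT_PBS, at 9.36, 14.5 and 17.9 in KO_PBS and at 6.50, 3.71 and 3.78 in KO_secGAA (5.64-fold over WT_PBS, limma adjusted p = 0.000219). The 3 groups were apart, and Tlr2 fell by 1.47 on the log2 scale in KO_secGAA against KO_PBS (adjusted p = 0.0173), though not without KO_PBS 2, KO_PBS 3, KO_secGAA 2 or KO_secGAA 3 (adjusted p up to 0.0701). Tgfb1, a cytokine of repair and fibrosis, was at 3.05, 4.67 and 3.59, at 10.5, 17.1 and 10.7 and at 13.7, 10.4 and 7.31. It rose 3.06-fold in KO_PBS (adjusted p = 0.00222) and was 2.53-fold higher in KO_secGAA than in WT_PBS (adjusted p = 0.0232), the latter lost with voom and without WT_PBS 1, WT_PBS 3, KO_secGAA 1 or KO_secGAA 2. Ptgs2, the inducible cyclooxygenase, was at 0.308, 0.246 and 0.259 in WT_PBS and at 1.66, 17.8 and 6.57 in KO_PBS (adjusted p = 0.0071; 0.114 with voom). The list's count was 4 without WT_PBS 3 (beside 906 of 13045 genes) or KO_PBS 2 (beside 921 of 12994).

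Markers of other cells were measured beside these. Of 7 neutrophil markers, 0 were in the table, and these are not analysed here. Of 8 markers of T and NK cells, only Cd3e was in the table, with WT_PBS mice at 4.35, 8.61 and 11.1 and KO_PBS mice at 1.01, 2.56 and 4.28, and it fell (limma adjusted p = 0.0434), a call lost in 9 of 19 alternatives. Of 5 monocyte markers tested, 1 rose and 1 fell (beside 10.9% and 11% of all genes), with a median log2 fold change of 0.19 and 3 of 5 above 0. Their sums, which weigh abundant genes most, were lower in KO_PBS, at 24.8 to 31.0, than in WT_PBS, at 31.2 to 49.9, with KO_secGAA at 26.3 to 40.1. Their mean log2 difference from the WT_PBS mean was not lower, at 0.015 to 0.431 in KO_PBS and -0.176 to 0.116 in WT_PBS. Plac8 rose, with WT_PBS mice at 0.308, 0.386 and 0.629 and KO_PBS mice at 1.99, 2.33 and 2.90. It too was under 1 in every WT_PBS library and met the filter through knockout libraries alone. Ace, which endothelium also expresses, fell, though not without scaling factors (adjusted p = 0.0802). Of 6 endothelial markers 3 fell (Esam, Pecam1 and Tie1), beside 11% of all genes, with sums of 144 to 171 in WT_PBS, 93.4 to 135 in KO_PBS and 141 to 164 in KO_secGAA. All 3 calls were lost without scaling factors (limma adjusted p up to 0.657). Those of Pecam1 and Tie1 were lost in 6 and 4 of 19 alternatives. Sums of the 4 satellite cell markers were higher in KO_PBS, at 33.7 to 37.3, than in WT_PBS, at 24.5 to 26.7, and KO_secGAA, at 23.3 to 26.3. Of these, Cdh15, a cadherin of muscle stem cells, had WT_PBS mice at 20.6, 19.2 and 20.2, KO_PBS mice at 26.1, 26.7 and 24.6, and treated mice at 16.5, 14.9 and 19.8. It rose in KO_PBS (log2 fold change 0.36, adjusted p = 0.046) and fell in KO_secGAA against KO_PBS (-0.59, adjusted p = 0.0237), calls lost in 8 and 6 of 19 alternatives, with any KO_PBS library left out among them. Sums of the 6 fibroblast markers overlapped, at 406 to 514, 434 to 705 and 429 to 538. The part of these cells in the members' values was not tested.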

How the data were processed

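Messenger RNA (polyA) of quadriceps muscle from 9 mice was sequenced in single-end mode, per the labels. The authors deposited a table of normalized counts, a signal equal to CPM on TMM-scaled library sizes with 0.5 read added to each count. Per the submitters' processing notes, the tools were RSEM, cutadapt, CASAVA, edgeR and limma and the build was GRCm38. The sources used here give neither their roles or versions nor the strandedness of counting. The deposited values are (reads + 0.5) divided by library total and TMM factor, times a constant: 100% of 118044 values came out as whole reads (relative tolerance 1e-06), and recomputed TMM factors gave the values back to within 9.2e-08.

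A filter of 1 or more normalized counts in at least 3 libraries removed 27 genes. log2(value + 0.5) of the deposited values was fitted with limma 3.58.1 (R 4.3.3, trended empirical Bayes) with 3 groups in 1 fit (6 residual degrees of freedom), with Benjamini-Hochberg adjustment over all 13089 genes and a threshold of 0.05. Fold changes are on this scale and understate those of low genes. The script was tested on simulated data. Alternatives were no scaling factors, quantile normalization, other pseudocounts and filters, fits of only the groups compared, and leaving out each library. Further alternatives were voom, edgeR 4.0.16 and DESeq2 1.42.0 on the recovered reads. In KO_PBS against WT_PBS these tools called 14, 13 and 21 members risen, beside 1385, 1424 and 1451 of all genes. All columns were mapped to samples. The labels do not name litters or batches, so p-values measure the spread between these mice. An exact permutation test of 3 mice against 3 cannot give a p under 0.1 and was not used.

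Every member is given by value or range, and members called, resident-type or abundant are given per library, with up to 4 called genes of each further list by smallest p. Some genes were added after their values were seen: Csf1, Ccl8, Cd9, Ctsd, Mmp12, Pycard, Myd88, Il18, Plac8, Ace, Cd3e and Cdh15. The members and all lists were chosen with earlier results of these data known. Gene positions are from GENCODE on GRCm38, and promoter sequences are from RefSeq on GRCm38.p6. Results for 1 gene of the growth factor and lineage list are not reported here.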

Additional observations from a re-analysis of the deposited data

How the results depend on the processing

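Of the 13 members that rose in KO_PBS against WT_PBS, 7 (Mpeg1, Cd68, Lyz2, Cd84, Gpnmb, C3ar1 and Ccl2) passed in each of the up to 19 alternatives in which they were tested. Of these, Cd84 and Ccl2 met the main filter on low values through knockout libraries alone. The number risen was 26 without scaling factors, where 4466 of all 13089 genes rose, in place of 1430. In that setting the median over all genes moved to 0.305, and 89.6% of called genes were up in place of 49.9%. The number of members risen was 8 with a filter at 5 (beside 1171 of the 9638 genes it tests) and 21 with DESeq2 (beside 1451 of 13089). It was 21 with only the 2 groups compared (beside 1370 of 13089). With 1 library left out it was 7 (without KO_PBS 2, beside 921 of 12994) to 19 (without KO_secGAA 3, beside 1445 of 13043). The number fallen was 0 to 1 with 1 library left out (Folr2, without WT_PBS 3, where 824 of 13045 genes fell). In KO_secGAA against KO_PBS the number fallen was 2 without scaling factors, with quantile normalization, pseudocount 1, a filter at 5, voom or DESeq2, and 0 to 2 with 1 library left out. Of all genes, 287 (voom) to 857 (no scaling factors) fell in the former settings and 102 to 346 in the latter. In KO_secGAA against WT_PBS the number risen was 0 with voom, 1 with edgeR, 5 with DESeq2, 0 with only the 2 groups compared and 0 to 6 with 1 library left out. Of all genes, 166, 254, 487, 191 and 59 to 279 rose in these settings. The causes were not tested.

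Signs turned for 21 of 161 gene results, 1 of them called: Ttn, a muscle fibre marker, went from -0.398 in KO_PBS against WT_PBS to 0.068 with quantile normalization. The others were members that had not passed. Without scaling factors these were Cd163 (-0.13) and Fcer1g (-0.02) in KO_secGAA against KO_PBS and Folr2 (0.031) in KO_secGAA against WT_PBS. In the latter comparison F13a1 turned to -0.005 with quantile normalization, -0.003 with voom, -0.032 with edgeR and -0.038 with DESeq2, and Clec10a to -0.004, -0.043 and -0.049 with quantile normalization, edgeR and DESeq2. With 1 library left out, KO_PBS against WT_PBS ran from -0.104 to 0.54 for Itgam. KO_secGAA against KO_PBS ran from -0.627 to 0.001 for Adgre1, -0.384 to 0.065 for Aif1, -0.009 to 0.831 for Ptprc, -0.125 to 0.813 for Cd53, -0.106 to 0.622 for Itgb2, -0.482 to 0.222 for Cybb, -0.054 to 0.112 for Cd163, -0.375 to 0.063 for Mrc1, -0.473 to 0.01 for Tyrobp, -0.174 to 0.465 for Fcer1g, -0.425 to 0.075 for C1qb, -0.363 to 0.127 for C1qc and -0.241 to 0.049 for Cd14. KO_secGAA against WT_PBS ran from -0.143 to 0.22 for Csf1r, -0.593 to 0.277 for Folr2, -0.298 to 0.227 for F13a1, -0.269 to 0.464 for Clec10a, -0.191 to 0.41 for Ccl9 and -0.004 to 0.286 for Cd14. No paired analysis was possible because the labels give the mice no numbers shared between groups. At this depth 3 reads were 0.196 to 0.276 normalized counts, and lower values were not told from 0.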
